A study of Homo sapiens with 6 samples.

Results

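TGM2, OLR1 and PDZK1IP1 are 3 of the 17789 gene symbols listed in the RNA-sequencing tables of a FOXD3 knockdown experiment. They were picked by symbol, with their difference between knockdown and control libraries already known, so their own values are a description and carry no test. All 3 were listed at a single locus in each of the 6 libraries, and all 3 passed the filter of a mean of at least 0.5 FPKM. FPKM values correct fragment numbers for the length of the transcript and the size of the library, so levels of different genes can be set side by side. The knockdown group had 3 libraries of A549, an established line from a human lung adenocarcinoma, transfected with a pool of small interfering RNAs against FOXD3, a forkhead transcription factor. The control group had 3 libraries of A549 cells described as wild type. Replicate numbers follow the order of deposition, name the libraries only and pair none across groups. Both groups share the parent line, and whether control cells were given a transfection of any kind is not in the labels. The knockdown was examined 72 h after transfection. The labels do not tell separate cultures from repeated libraries of 1 culture, and the p-values cover only the spread between these libraries, which may be technical.

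TGM2 encodes transglutaminase 2, a calcium-dependent enzyme that joins glutamine to lysine side chains and so cross-links proteins. It also binds GTP, and outside the cell it holds fibronectin to integrins. Its transcription is known to be raised by retinoic acid and by NF-kB. OLR1 encodes LOX-1, a membrane receptor with a C-type lectin-like domain that takes up oxidised low-density lipoprotein, best known from endothelium and macrophages and inducible by inflammatory cytokines. PDZK1IP1, also called MAP17, is a small membrane protein whose C-terminus binds PDZ domains of the scaffold PDZK1. It is best known from the kidney proximal tubule, where it is a partner of the glucose transporter SGLT2, and it is often more abundant in carcinomas than in normal epithelium.

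A RefSeq promoter sequence was available for 1 of the 3 genes, PDZK1IP1, so only this one is shown. The window covers 250 bases before and 50 after the start site, on the minus strand of GRCh38.p14 at chr1:47189987-47190286, and capitals mark a match to the NF-kB consensus.
PDZK1IP1 promoter: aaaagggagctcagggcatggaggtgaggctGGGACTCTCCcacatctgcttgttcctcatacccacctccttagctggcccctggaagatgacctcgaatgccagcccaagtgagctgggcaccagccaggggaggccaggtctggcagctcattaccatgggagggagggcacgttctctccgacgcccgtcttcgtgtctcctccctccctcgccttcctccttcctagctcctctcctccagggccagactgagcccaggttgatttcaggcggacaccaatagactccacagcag
Both strands were searched for 7 motifs. The NF-kB match, GGGACTCTCC, lies on the strand of transcription at positions -219 to -210 from the start site, and 11.3% of the 35116 RefSeq promoters of this length hold at least 1 such match. A CCAAT box (CCAAT) was found on the same strand at bases 282 to 286 of the window, downstream of the start site and apart from the first match, and 34.6% of promoters hold one. The letters of AP-1 (TGANTCA), the TATA box (TATAAA), the GC box (GGGCGG), the STAT motif (TTCNNNGAA) and the forkhead core (GTAAACA) are not in this window, against shares of 7.71%, 11.5%, 45%, 7.66% and 3.42% of all promoters. The window is 61% G and C, near the median of 58.7% over all promoters. A match describes the letters and shows no binding.

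The series as a whole moved widely. FOXD3 itself was unlisted in 2 of the 3 knockdown libraries and had 0.0749 FPKM in the other, knockdown replicate 2, against 0.134 to 0.291 FPKM in the control libraries (exact two-sided permutation test, p = 0.1, the smallest that 3 against 3 allows). Even its control mean, 0.192 FPKM, was under the filter of 0.5 FPKM, so it had no limma test. At such a level these values say little about the size of its loss. Of 13340 genes tested with limma, 63.5% passed a Benjamini-Hochberg adjusted p of 0.05. Genes called higher in knockdown were 25.6% and genes called lower 37.9%, with a median log2 difference of -0.09 over all genes. Quantile normalization moved that median to 0.03 and gave 4304 genes higher and 3909 lower, where the values as deposited gave 3417 and 5050, so small differences depend on scaling. Small nucleolar RNAs held 4.82% of the FPKM total in knockdown replicate 2, against 0.961% to 1.91% in the other 5 libraries. The files give no counts. A search for the value of a single fragment in 51 to 63 intronless genes per library found no clear step, so depth is unknown.

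TGM2 (Entrez 7052) lies on chromosome 20, 36756864 to 36793700 on hg19, and its gene model is on the minus strand with up to 13 exons in GENCODE 29. It stood at 15.6, 15.7 and 15.8 FPKM in knockdown replicates 1, 2 and 3, against 80.4, 81.2 and 88.5 FPKM in control replicates 1, 2 and 3. The groups were far apart, and the highest knockdown library had 19.7% of the lowest control library. The mean was 15.7 ± 0.126 FPKM in knockdown and 83.4 ± 4.45 FPKM in control libraries (SD, n = 3 each), 5.31-fold lower by mean FPKM. The log2 difference, on the log2(FPKM + 1) scale used throughout, was -2.34. TGM2 ranked between 4804 and 4859 by level in the knockdown libraries and between 945 and 1056 in the control libraries. The 3 knockdown values were close to each other, with a coefficient of variation of 0.805%, where the median gene at 5 FPKM or more had 4.5%.

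OLR1 (Entrez 4973) lies on chromosome 12, 10310899 to 10324790 on hg19, minus strand, with up to 6 exons. It stood at 24.2, 25.9 and 25.1 FPKM in knockdown replicates 1, 2 and 3, against 90.9, 93.2 and 89.2 FPKM in control replicates 1, 2 and 3. The groups did not overlap, and the highest knockdown library had 29% of the lowest control library. The mean was 25.1 ± 0.832 FPKM in knockdown and 91.1 ± 2.01 FPKM in control libraries (SD, n = 3 each), 3.64-fold lower, with a log2 difference of -1.82. OLR1 ranked between 3249 and 3451 in the knockdown libraries and between 890 and 938 in the control libraries. 

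PDZK1IP1 (Entrez 10158) lies on chromosome 1, 47649261 to 47655771 on hg19, minus strand, with up to 5 exons and a longest transcript of 846 bases in GENCODE 29. It stood at 3.66, 5.43 and 3.64 FPKM in knockdown replicates 1, 2 and 3, against 147, 131 and 169 FPKM in control replicates 1, 2 and 3. The groups were separated more widely than for either other gene, and the highest knockdown library had 4.14% of the lowest control library. The mean was 4.24 ± 1.03 FPKM in knockdown and 149 ± 19.1 FPKM in control libraries (SD, n = 3 each), 35.1-fold lower, with a log2 difference of -4.85. It ranked between 8514 and 9643 in the knockdown libraries and between 458 and 605 in the control libraries. Its libraries were spread more widely than usual, with a coefficient of variation of 24.2% in knockdown and 12.9% in control libraries. The median gene averaging 5 FPKM or more over all libraries had 4.5% in knockdown and 6.54% in control libraries. In knockdown libraries PDZK1IP1 averaged less than that, at 4.24 FPKM, and no comparison with genes of like level was made. Knockdown replicate 2, the library with the large share of small nucleolar RNAs and the only knockdown library that listed FOXD3, was the highest of its group for PDZK1IP1, and whether these are linked was not tested. In bulk RNA, fewer cells with a transcript and less of it per cell cannot be told apart, for these genes and all others here.

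**Figure D1:**
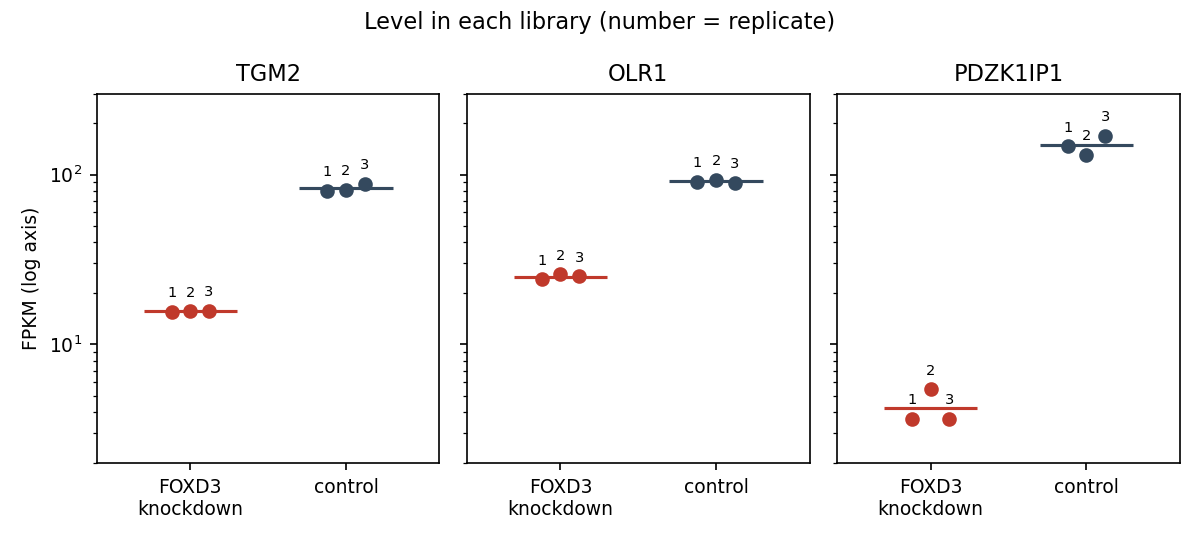
FPKM of TGM2, OLR1 and PDZK1IP1 in each library on a log axis, FOXD3 knockdown left of control; points are libraries numbered by replicate and lines are group means. The groups are separate for each gene, and PDZK1IP1 is lowest of the 3 genes in the knockdown libraries (3.64 to 5.43 FPKM) and highest in the control libraries (131 to 169 FPKM).

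The order of the 3 genes by level differed between the groups. In the knockdown libraries OLR1 was highest, TGM2 next and PDZK1IP1 lowest in every replicate. In the control libraries PDZK1IP1 was highest in every replicate, while OLR1 and TGM2 were close, with 90.9 against 80.4, 93.2 against 81.2 and 89.2 against 88.5 FPKM. The ratio of OLR1 to TGM2 was 1.55 to 1.65 in knockdown and 1.01 to 1.15 in control libraries. The ratio of PDZK1IP1 to TGM2 was 0.23 to 0.346 in knockdown and 1.61 to 1.91 in control libraries. The order of the libraries within a group was not the same for all genes. Control replicate 3 was the highest control for TGM2 and PDZK1IP1 but the lowest for OLR1, whose controls spanned only 89.2 to 93.2 FPKM. Knockdown replicate 2 was the highest of its group for both OLR1 and PDZK1IP1, and knockdown replicate 3 for TGM2.

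Among all genes tested, 5 had a larger fall than PDZK1IP1 on the log2(FPKM + 1) scale, 50 a larger one than TGM2 and 115 a larger one than OLR1. Groups that do not overlap, with the knockdown lower, were seen for 40.8% of all genes, and groups that do not overlap in either direction for 69.1%. The 3 genes were chosen with this contrast known, so their separation is read no further. The authors' deposited table gives TGM2 as 16.6 FPKM in knockdown and 80.5 FPKM in control, OLR1 as 24.6 and 84.1 FPKM, and PDZK1IP1 as 4.54 and 143 FPKM, in the same order of groups. The log2 fold changes in the authors' deposited table, knockdown over control, were -2.28 for TGM2, -1.77 for OLR1 and -4.98 for PDZK1IP1. By these values, which hold no added constant, their falls ranked lower, at 157, 315 and 12. That table held 12275 genes, and those without a finite fold change were not ranked. The terms of gene ontology deposited with the tables numbered 20 for TGM2, 15 for OLR1 and 1 for PDZK1IP1. TGM2 and OLR1 shared 1 term, plasma membrane, and no term was common to all 3.

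**Figure D2:**
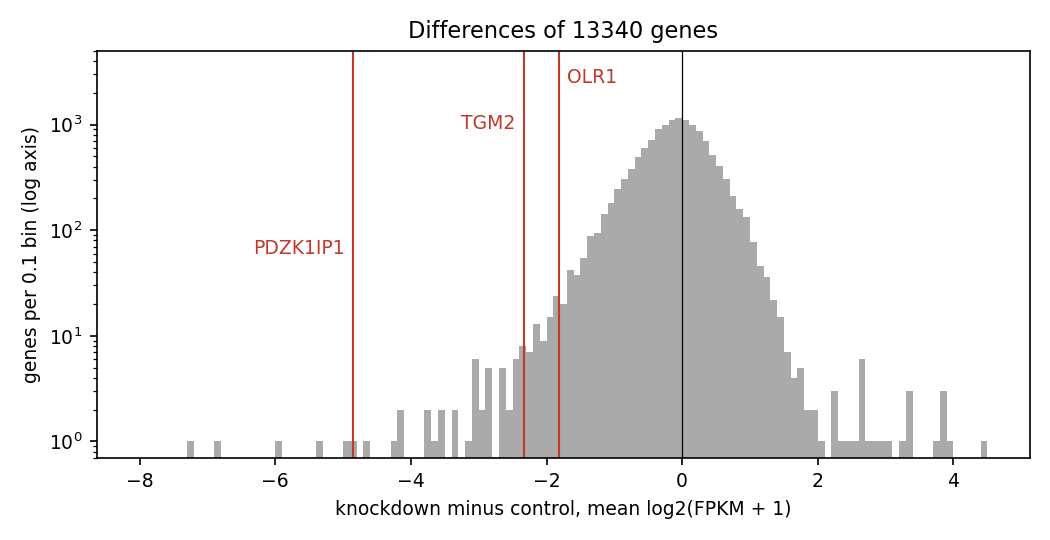
Number of genes (log axis) by the difference of knockdown minus control in mean log2(FPKM + 1), in bins of 0.1, over 13340 genes, with red lines at the 3 genes. PDZK1IP1 at -4.85 stands among single genes at the far left, while TGM2 at -2.34 and OLR1 at -1.82 stand in the left tail.

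Transglutaminases form a family that shares the cross-linking activity, with EPB42 as a structural member without it. TGM1, the keratinocyte transglutaminase that builds the cornified envelope, was the sole other family gene to pass the filter, of 9 looked for. It fell to 2.99 ± 0.246 FPKM in knockdown, against 10.5 ± 0.873 FPKM in control libraries (SD, n = 3 each), a log2 difference of -1.53 (SE 0.09; limma, Benjamini-Hochberg adjusted p = 3.94e-06). TGM3 and TGM5 stayed under 0.1 FPKM on average in both groups and TGM4 averaged 0.151 and 0.133 FPKM in knockdown and control libraries. TGM6, TGM7, F13A1, F13B and EPB42 were listed in no library. TGM2 was therefore the most abundant transglutaminase transcript in both groups.

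Genes for proteins that bind TGM2 or that it binds at the cell surface and in the matrix were mostly lower. Of 18 tested, 16 fell and 1 rose, 94.4% called against the 63.5% of all genes, with a median log2 difference of -0.46 beside -0.09 for all genes. FN1, fibronectin, the main surface partner of TGM2, averaged 303 ± 12.6 FPKM in knockdown and 749 ± 95.2 FPKM in control libraries, a log2 difference of -1.30 (SE 0.09; limma, Benjamini-Hochberg adjusted p = 7.61e-06). SDC4, a heparan sulfate proteoglycan that binds TGM2 in the matrix, averaged 105 ± 4.25 and 260 ± 25.1 FPKM in knockdown and control libraries (limma, Benjamini-Hochberg adjusted p = 3.55e-06). LRP1, an endocytic receptor that takes up TGM2 from the surface, was 2.61-fold lower (adjusted p = 3.36e-06). VIM, vimentin, a cytoskeletal protein, was 3.25-fold lower at 1.17 ± 0.263 FPKM in knockdown and 3.79 ± 0.401 FPKM in control libraries (adjusted p = 7.08e-05). The integrin subunit ITGB1 was 1.4-fold lower, and PDIA3, a disulfide isomerase, was the gene that rose. After median scaling 14 genes of this list were lower, the smaller falls of ITGB5 and GPR56 no longer passing.

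Retinoic acid genes, which include receptors, binding proteins, enzymes and responsive genes, moved both ways. Of 15 tested, 7 fell and 4 rose, 73.3% called beside 63.5% of all genes, with a median log2 difference of -0.08 beside -0.09 for all genes. RARRES1, a gene named for its response to a retinoid, fell to 5.34 ± 0.371 FPKM in knockdown, against 24.1 ± 3.07 FPKM in control libraries, a log2 difference of -1.98 (SE 0.10; limma, Benjamini-Hochberg adjusted p = 2.18e-06). STRA6, the membrane receptor for retinol-binding protein, was 2.39-fold lower (adjusted p = 4.61e-05). ALDH1A1, which makes retinoic acid from retinal, went the other way, at 98.1 ± 6.93 FPKM in knockdown and 31.7 ± 2.31 FPKM in control libraries (adjusted p = 1.26e-06). CRABP2, which carries retinoic acid to its receptors, was the most abundant gene of the list and rose to 219 ± 2.07 FPKM in knockdown, against 163 ± 9.09 FPKM in control libraries (adjusted p = 0.000101). The receptors RARA and RARG did not pass, at 6.44 and 30 FPKM in knockdown and 6.9 and 31.7 FPKM in control libraries. Of the partner receptors, RXRA rose to 32.1 FPKM in knockdown, against 25.3 FPKM in control libraries (limma, Benjamini-Hochberg adjusted p = 0.00064). RXRB, summed over 6 loci, fell to 15.2 FPKM in knockdown, against 20.8 FPKM in control libraries (adjusted p = 0.000402).

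Scavenger receptors, the class of OLR1, and lipoprotein receptors did not move as a block, and not all of those listed bind lipoproteins. Of 10 scavenger and lipoprotein receptors tested, 6 fell and 3 rose, 90% called beside 63.5% of all genes, with a median log2 difference of -0.25 beside -0.09. LRP8, a receptor for apolipoprotein E, rose to 44 ± 0.504 FPKM in knockdown, against 22.2 ± 0.949 FPKM in control libraries (limma, Benjamini-Hochberg adjusted p = 2.81e-06). SCARB1, the receptor for high-density lipoprotein, was 1.49-fold higher (adjusted p = 0.000303). VLDLR was 2.01-fold lower (adjusted p = 0.00142), as was AGER, the receptor for glycated proteins, by 2.34-fold (adjusted p = 0.000405), a gene summed over 7 loci. CD68, a lysosomal scavenger receptor and the most abundant of these, averaged 66 ± 0.82 FPKM in knockdown and 74 ± 4.74 FPKM in control libraries (limma, Benjamini-Hochberg adjusted p = 0.0277), a call lost in 6 of 14 alternatives, with adjusted p from 0.00479 to 0.327. They were median scaling, the fit without a trend and the runs without control replicate 3 (0.0569) or without knockdown replicate 1 (0.0851), 2 (0.0597) or 3 (0.073). CD36, the other well-known receptor for oxidised lipoprotein, averaged 0.0858 and 0.104 FPKM in knockdown and control libraries, under the filter.

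The C-type lectin genes that share OLR1's gene cluster on chromosome 12 were scarce. Of 19 looked for, 11 were listed in any library and 3 passed the filter. These had 0 calls by limma, by the fit without a trend and by the robust fit, and 0 at an unadjusted p of 0.05. Over all genes 63.5% were called, and 3 genes at such low levels say little beside that share. CLEC2D, a ligand of a natural killer cell receptor, was the highest at 1.34 ± 0.246 FPKM in knockdown and 1.52 ± 0.321 FPKM in control libraries (limma, Benjamini-Hochberg adjusted p = 0.52). CLEC7A, the beta-glucan receptor Dectin-1, averaged 0.716 and 0.99 FPKM, and CLEC12A 0.465 and 0.577 FPKM, in knockdown and control libraries. The signs of these 3 small differences turned with quantile normalization.

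Genes for ligands of LOX-1, for enzymes that cleave membrane receptors, and for the oxidase and GTPases of its signalling were called in both directions. Of 14 tested, 4 rose and 6 fell, 71.4% called beside 63.5% of all genes, with a median log2 difference of -0.04 beside -0.09. The 4 that rose code for ligands: HMGB1, a chromatin protein released from damaged cells, averaged 274 ± 3.93 FPKM in knockdown and 141 ± 5.66 FPKM in control libraries (limma, Benjamini-Hochberg adjusted p = 1.24e-06), and HSPD1, the mitochondrial HSP60, was 1.46-fold higher (adjusted p = 4.1e-05). The other two, HSPA1A and HSPA1B, are near-identical HSP70 copies at 5 summed loci each, so their values are uncertain. BACE1, a protease known to act on LOX-1, was 1.9-fold lower (limma, Benjamini-Hochberg adjusted p = 0.00048). ADAM10, a protease known to shed LOX-1, did not pass, at 32.3 and 30.6 FPKM in knockdown and control libraries.

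Genes tied to PDZK1IP1 through PDZ scaffolds moved both ways. Of 13 tested genes for PDZ scaffolds, their cargo and the NUMB and NOTCH1 pathway, 4 rose and 4 fell, 61.5% called beside 63.5% of all genes, with a median log2 difference of 0.09. After median scaling 5 rose and 2 fell, and after quantile normalization 7 rose and 1 fell. PDZK1, the scaffold that gives the gene its name, averaged 2.05 ± 0.273 FPKM in knockdown and 3.43 ± 0.785 FPKM in control libraries (limma, Benjamini-Hochberg adjusted p = 0.0134), a call lost with quantile normalization (adjusted p = 0.181; 0.00189 to 0.181 over the alternatives). The related scaffold SLC9A3R1, also known as NHERF1, was 1.42-fold higher at 33.4 ± 2.24 FPKM in knockdown and 23.6 ± 0.797 FPKM in control libraries (adjusted p = 0.000235). EZR, ezrin, which ties that scaffold to actin, was 1.37-fold higher (adjusted p = 2.77e-05), and ABCC2, an apical drug exporter with a PDZ-binding end, 1.68-fold higher (adjusted p = 9.6e-06). SLC15A1, an apical peptide transporter, fell furthest, with 0.234 ± 0.022 FPKM in knockdown and 2.32 ± 0.525 FPKM in control libraries (adjusted p = 4.65e-05). SLC5A2, the gene of SGLT2, averaged 1.67 ± 0.193 and 2.36 ± 0.28 FPKM in knockdown and control libraries, a difference whose call (limma, Benjamini-Hochberg adjusted p = 0.0236) was lost in 6 of 13 alternatives, with adjusted p from 0.0127 to 0.687. They were both scalings and the runs without control replicate 1 or 2 or knockdown replicate 1 or 3. C19orf77, a related small membrane protein gene, stayed at 0.0419 and 0.0441 FPKM in knockdown and control libraries.

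**Figure D3:**
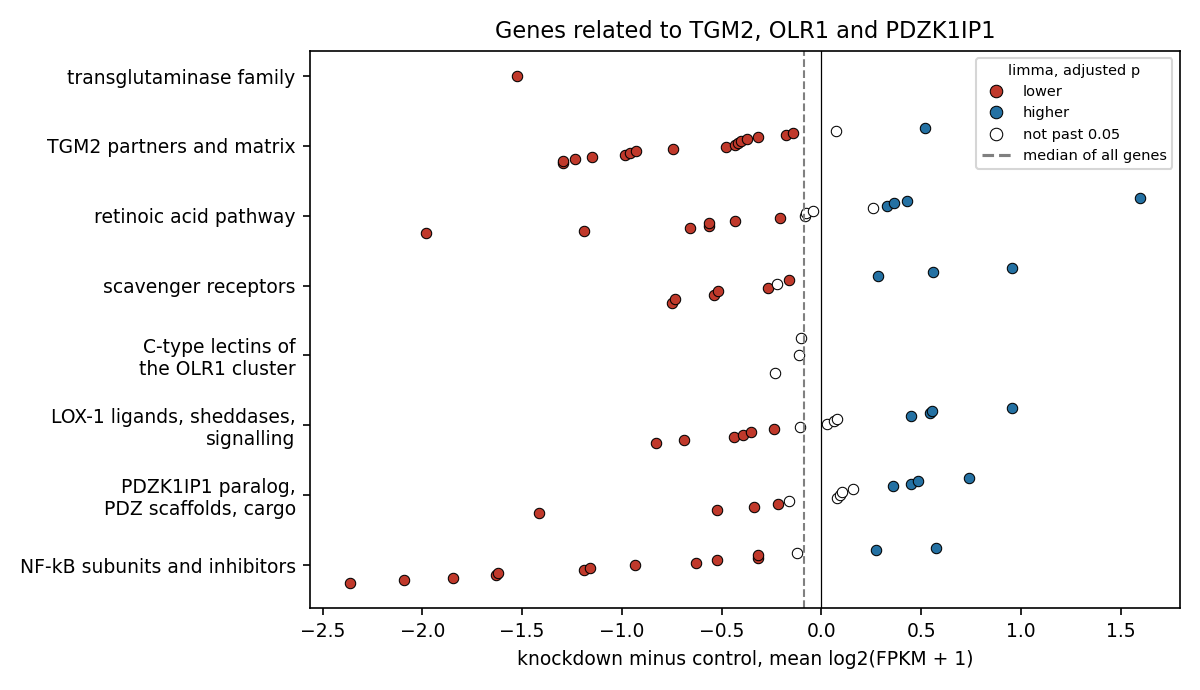
Difference of knockdown minus control in mean log2(FPKM + 1) for each tested gene (point) of 8 groups related to the 3 genes, coloured by limma's call; the dashed line is the median of all genes. TGM2's partners lie mostly left of the line (16 of 18 lower), while retinoic acid, receptor and PDZ groups lie on both sides.

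NF-kB is a known inducer of TGM2 and OLR1, so its subunits and inhibitors are set beside them. Of 15 tested genes 12 fell and 2 rose, 93.3% called beside 63.5% of all genes, with a median log2 difference of -0.93 beside -0.09. The 2 that rose, CHUK and IKBKG, code for parts of the kinase complex that releases NF-kB. That complex did not move as 1. Its other kinase gene in the list, IKBKB, fell to 8.29 FPKM in knockdown, against 10.6 FPKM in control libraries (limma, Benjamini-Hochberg adjusted p = 0.00266). The call of IKBKG (limma, Benjamini-Hochberg adjusted p = 0.0274) was lost in 5 of 14 alternatives, namely with no filter and without control replicate 2 or 3 or knockdown replicate 1 or 3, with adjusted p from 0.00302 to 0.0882. RELB, a subunit of the non-canonical pathway, averaged 2.93 ± 0.42 FPKM in knockdown and 19.2 ± 1.51 FPKM in control libraries (limma, Benjamini-Hochberg adjusted p = 1.07e-06), and NFKB2, its partner, was 3.24-fold lower. The inhibitor NFKBIA was 3.71-fold lower and TNFAIP3, a deubiquitinase that limits the pathway, 5.14-fold lower. RELA, the main activating subunit, was lower by a log2 difference of -0.32 (adjusted p = 0.000433). Earlier results on these libraries had already shown this group to be lower, so it is no independent support for a link.

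The genes whose pattern over the 6 libraries was nearest to each member were found by the root mean square difference of log2(FPKM + 1), each gene centred on its own mean. For TGM2 they were HLA-DQB1, PIP5KL1, GAS6, SAT1 and SOD2, at 0.0444 to 0.102. By mean FPKM, HLA-DQB1 was 80.4-fold and PIP5KL1 9.16-fold lower, against 5.31-fold for TGM2, because the added 1 shrinks differences at low level. GAS6, the ligand of the receptor kinase AXL, was also alike in level, at 13.9 ± 0.516 FPKM in knockdown and 80.5 ± 1.7 FPKM in control libraries. HLA-DQB1 belongs to a polymorphic family with close copies and was at 0 to 0.0779 FPKM in knockdown libraries, so its value is uncertain. For OLR1 they were RRAS, TMEM132A, NFKBIA, ICAM1 and HPN, at 0.0445 to 0.0826. ICAM1, a leukocyte adhesion molecule, averaged 11.9 ± 0.679 FPKM in knockdown and 47.1 ± 2.9 FPKM in control libraries. For PDZK1IP1 they were IL8, S100A7, C15orf48, S100A8 and IL6, at a wider 0.371 to 0.661, so that no gene matched PDZK1IP1 as closely as some matched the other 2. IL8, a neutrophil chemokine, averaged 1.24 ± 0.0785 FPKM in knockdown and 41.8 ± 3.16 FPKM in control libraries. The members were not nearest to each other, and the order depended on the gene started from. OLR1 was the 63rd nearest gene to TGM2, and TGM2 the 242nd nearest to OLR1. TGM2 was the 35th and OLR1 the 95th nearest to PDZK1IP1, at distances of 1.27 and 1.52. In the other direction PDZK1IP1 was only the 9611th nearest to TGM2 and the 13188th nearest to OLR1. With 6 libraries in 2 groups, the measure mostly reflects the size of the difference between the groups on the log2(FPKM + 1) scale.

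Of the genes close to the members on the chromosome, within 200 kb, 9 were tested, of which 3 fell and 2 rose, beside 63.5% called over all genes. Beside TGM2, RPRD1B at 36.1 kb averaged 19.2 ± 0.0841 FPKM in knockdown and 18.9 ± 1.05 FPKM in control libraries, TTI1 did not pass either, and VSTM2L at 183 kb was 1.65-fold lower (limma, Benjamini-Hochberg adjusted p = 0.00135). Beside OLR1, GABARAPL1, an autophagy gene of the ATG8 family at 40.7 kb, fell to 39.3 ± 0.818 FPKM in knockdown, against 93.2 ± 4.92 FPKM in control libraries, a log2 difference of -1.23 (SE 0.05; limma, Benjamini-Hochberg adjusted p = 1.07e-06). C12orf59, now named TMEM52B, at 6.77 kb, was 1.99-fold lower, at 2.75 ± 0.77 FPKM in knockdown and 5.46 ± 0.199 FPKM in control libraries (adjusted p = 0.0017). In GENCODE 29 the models of TMEM52B and OLR1 overlap on opposite strands, as do those of RPRD1B and TGM2. The strand setting is not given in the sources used here, so reads in such overlaps cannot be told apart. Beside PDZK1IP1, STIL, a centriole duplication gene at 60 kb, rose 1.45-fold (adjusted p = 0.000217). CMPK1 at 144 kb rose 1.1-fold (adjusted p = 0.0496), a call lost in 10 of 14 alternatives, among them each run without knockdown replicate 1, 2 or 3 and those without control replicate 1 or 2, with adjusted p from 0.00396 to 0.473; those 5 runs gave 0.0516 to 0.119. TAL1, the blood-lineage factor next to PDZK1IP1, was at 0 in all 3 knockdown libraries and at 0.0278 to 0.0867 FPKM in control libraries.

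**Figure D4:**
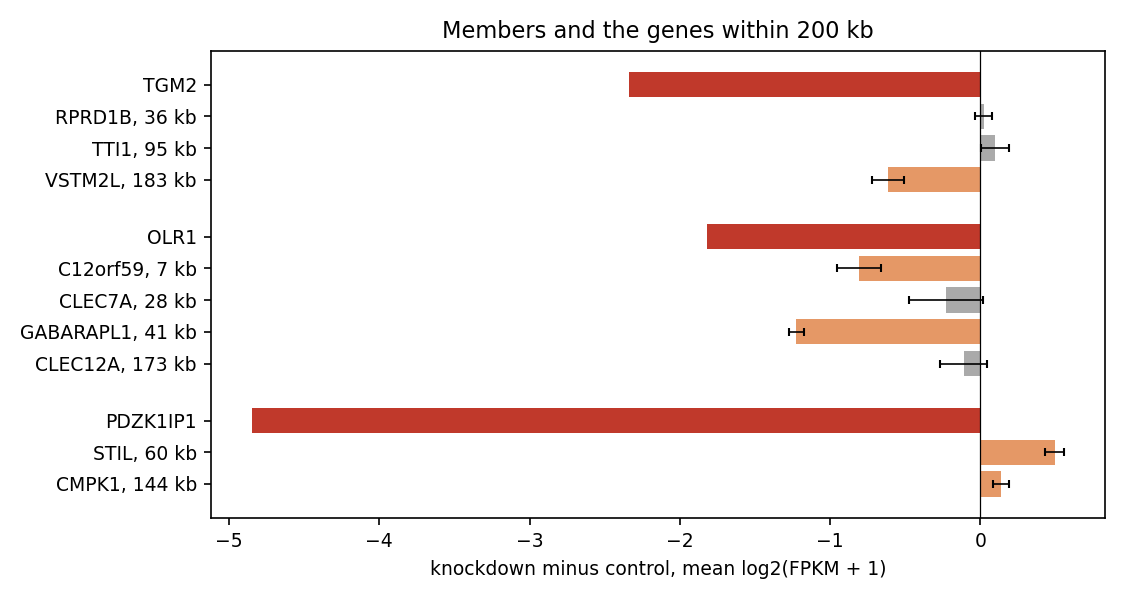
Difference of knockdown minus control in mean log2(FPKM + 1) for each member (red) and each tested gene within 200 kb (orange where limma's adjusted p passed 0.05, grey where not), with the distance between loci; whiskers are limma's standard errors. GABARAPL1 beside OLR1 has the largest difference of the neighbours (-1.23), and STIL beside PDZK1IP1 is higher.

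Markers of the cell types best known for these genes were checked for other cells in the culture. Epithelial markers were abundant, with the sum of 9 genes at 8756 to 8834 FPKM in knockdown and 6744 to 7708 FPKM in control libraries, and EPCAM at 159 ± 10.1 FPKM in knockdown and 114 ± 2.35 FPKM in control libraries. They did not move as a block: EPCAM, KRT8 and KRT18 rose, KRT7 (1545 FPKM in knockdown and 1709 FPKM in control libraries; limma, Benjamini-Hochberg adjusted p = 0.00632) and CDH1 (41.3 FPKM in knockdown and 48.2 FPKM in control libraries; adjusted p = 0.00406) fell, and KRT19 did not pass. The calls of KRT7 and CDH1 were lost after median scaling, and that of KRT7 also with quantile normalization. The sum of 8 macrophage and leukocyte markers was 69.7 to 71.2 FPKM in knockdown and 77.1 to 87.2 FPKM in control libraries, nearly all of it CD68, while the defining genes PTPRC, CD163 and ITGAM averaged under 0.3 FPKM in both groups. The sum of 8 endothelial markers was 4.06 to 4.25 FPKM in knockdown and 6.69 to 7.92 FPKM in control libraries, with PECAM1, VWF and KDR under 0.2 FPKM on average in both and ERG listed in no library. The sum of 6 proximal tubule markers was 3.22 to 3.23 FPKM in knockdown and 4.52 to 5.21 FPKM in control libraries, with LRP2 and SLC22A6 listed in no library. Besides CD68, described above, a few markers of these lists passed the filter and fell: CSF1R and CD14 for macrophages, CDH5 and ESAM for endothelium, and SLC5A2 and AQP1 for the tubule, each of these under 5 FPKM in every control library; the calls of CDH5, AQP1 and SLC5A2 were lost with quantile normalization. OLR1 and PDZK1IP1 had at least 89.2 and 131 FPKM in each control library. The sums of the 3 lists moved with OLR1 and PDZK1IP1, being lower in the knockdown libraries, and their part in the results was not tested. NKX2-1 averaged 1.6 and 1.27 FPKM in knockdown and control libraries, and the surfactant gene SFTPB was listed in no library.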

How the data were processed

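The authors deposited FPKM values in 1 table per library, per the file headers, and a table of their own comparison with FPKM per group, log2 fold change and p-value; its p-values were not used. Per the submitters' processing notes, which give neither roles nor order, the tools were TopHat2 2.0.12, Bowtie, Cufflinks 2.0.2 and Cuffdiff and the build was hg19; no source used here gives the strand setting or annotation. No table listed a gene at 0, so an unlisted symbol was set to 0, and rows of a symbol were summed. Loci are hg19; starts, which count from 0 in the files, are printed counted from 1.

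Each gene averaging 0.5 FPKM or more over the 6 libraries was fitted as log2(FPKM + 1) with limma 3.58.1 in R 4.3.3 (eBayes with a trend, two-sided, no covariate, Benjamini-Hochberg over 13340 genes). FOXD3 had an exact permutation test (scipy 1.17.1). No set test was run. On data simulated for this comparison over 13339 genes, 71% and 95% of genes changed by 0.5 and 1 (log2) were recovered and 4.05% of calls were false. Only a small part of the genes was changed there, none of them at low level, and the noise was normally distributed. These rates therefore do not carry over to genes at low level or to the many calls in the data. The members and lists were chosen with earlier results of these data known. Named genes are the members, FOXD3, up to 4 called genes of each list with the largest difference and at least 1 FPKM, its most abundant gene, the 5 nearest patterns, tested neighbours within 200 kb, and foreign markers at 5 FPKM; other list genes, TAL1, CD36 and the markers were named after their values were seen. Some genes that the rule names are not reported here. Gene models are from GENCODE 29 (GRCh38), promoters from RefSeq (GRCh38.p14). Neither was used for the files' coordinates.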

Additional observations from a re-analysis of the deposited data

How the results depend on the processing

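No paired analysis was possible because the labels give no replicate number or pairing; the numbers used here follow the order of deposition. The log2 differences of the 3 members kept their sign in all 10 alternatives each (2 pseudocounts, 2 scalings and 6 runs without 1 library). Leaving out 1 library gave -2.36 to -2.29 for TGM2, -1.84 to -1.80 for OLR1 and -5.00 to -4.75 for PDZK1IP1. Past the replicate spread were TGM2 at -2.40 and PDZK1IP1 at -5.12 with a pseudocount of 0.1, and TGM2 at -2.25 and OLR1 at -1.74 after median scaling, as follows from a smaller constant or a shift of all genes. The count of genes called ran from 6262 with a filter at 5 FPKM to 8679 with no filter, and from 7536 to 8469 without 1 library. Counts of calls per list stayed within 1.5 times, except for 5 scavenger receptors and 5 PDZ genes with the filter at 5 FPKM and 1 C-type lectin gene with no filter, where other numbers of genes were tested. Of 39 named genes, 511 of 534 values kept direction and side of the threshold. Signs turned with quantile normalization for CLEC12A (0.19), CLEC2D (0.20) and CLEC7A (0.0856). Without 1 library they turned for CLEC12A (-0.164 to 0.0151, turned without knockdown replicate 2), RPRD1B (-0.0028 to 0.0654, turned without control replicate 1) and TTI1 (-0.00041 to 0.175, turned without control replicate 3). None of these genes had passed. The files hold no counts, so precision rests on the spread of 3 libraries per group, and genes under about 1 FPKM are read with care.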
